A study of Caenorhabditis elegans with 2 samples.

Results

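The muscle thick filament genes of Caenorhabditis elegans were examined in whole fourth-stage (L4) larvae kept at 25 °C. The 8 genes were chosen by name from 46233 genes in the deposited table. They are the 4 muscle myosin heavy chain genes unc-54, myo-3, myo-1 and myo-2, the paramyosin gene unc-15, and the 3 light chain genes mlc-1, mlc-2 and mlc-3. Total RNA was sequenced in 1 library of the flp-6 mutant strain VC2324 and 1 library of wild type N2. The flp-6 gene encodes FMRFamide-like neuropeptides, and the allele is not named in the labels. Both libraries are labelled with the same stage and temperature, and whether they differed in developmental timing within that stage was not tested. Levels are given in FPKM, sequenced fragments of a gene divided by the length of its transcript and by the size of the library. Because each genotype had a single library, nothing was tested, and no value below has an error between cultures or animals.

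Thick filaments are the myosin rods of the sarcomere. Each muscle myosin molecule joins a pair of heavy chains, which hold the motor head and the coiled-coil tail, with regulatory and essential light chains bound at the neck. In nematodes the tails pack around a core that holds paramyosin, an invertebrate coiled-coil protein. The body wall muscle, which drives crawling, uses the heavy chains of unc-54 and myo-3, and the pharynx, the feeding pump, uses those of myo-1 and myo-2.

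Of the targeted gene itself, flp-6, there were 4.40 FPKM in mutant larvae, against 57.95 FPKM in N2 larvae. FPKM values summed over all genes to 989473 in the mutant library and 1414572 in the N2 library. Differences are given as log2((mutant FPKM + 1)/(N2 FPKM + 1)), with a median of -0.10 over the 13436 genes averaging 1 FPKM or more. Rescaling both libraries to the same FPKM sum moved that median by 0.44, to the same upper quartile by 0.19, and setting the median of genes averaging 5 FPKM or more to 0 moved it by 0.18. Across 12999 genes the difference was larger for longer transcripts (longest annotated transcript of a gene), with a Spearman's rho of 0.355 given as a description across genes. In bulk RNA from whole larvae, a different number of muscle cells and a different amount of RNA per cell cannot be told apart. Muscle was present by its transcription factor genes, with hlh-1 at 3.47 FPKM in mutant larvae, against 2.58 FPKM in N2 larvae, and unc-120 at 6.94 FPKM in mutant larvae, against 7.10 FPKM in N2 larvae. Of 5 such genes listed, 4 averaged 1 FPKM or more, with a median log2 difference of 0.14 and 2 above 0. The lowest of the 4 was hnd-1, at 1.01 FPKM in mutant larvae, against 3.33 FPKM in N2 larvae. Of other cell types, 6 neuronal markers summed to 146 FPKM in mutant larvae, against 175 FPKM in N2 larvae, and the 5 of 6 intestinal markers in the table to 1196 FPKM in mutant larvae, against 973 FPKM in N2 larvae. The 6 epidermal markers summed to 1095 FPKM in mutant larvae, against 1402 FPKM in N2 larvae, and the 6 germ line markers to 983 FPKM in mutant larvae, against 915 FPKM in N2 larvae. A sum follows its most abundant genes. Among markers averaging 1 FPKM or more, median log2 differences were -0.27 neuronal, 0.21 intestinal, -0.59 epidermal and -0.10 germ line. In that order 1 of 6, 3 of 5, 1 of 4 and 2 of 6 were above 0. At the same FPKM sum it was 5, 4, 2 and 5. None of these markers was listed at 0, and their part in the muscle values was not tested.

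The body wall heavy chains were higher in the mutant library. The unc-54 gene (WBGene00006789) encodes myosin heavy chain B, the main heavy chain of body wall muscle. It lies on the reverse strand of chromosome I from 14855901 to 14863482 in WBcel235, with 1 annotated transcript of 6204 nt in 9 exons, of which 5889 nt are coding. Its level was 393 FPKM in mutant larvae, against 128 FPKM in N2 larvae, 3.08 times as high in the mutant. The log2 difference was 1.61. The myo-3 gene (WBGene00003515) encodes myosin heavy chain A, which occupies the centre of the body wall filament, where assembly begins. It lies on the reverse strand of chromosome V from 12226817 to 12234343, with 1 transcript of 6104 nt in 7 exons. Its level was 50.8 FPKM in mutant larvae, against 15.7 FPKM in N2 larvae, 3.24 times as high in the mutant, for a log2 difference of 1.64. Both genes thus differed by nearly the same factor, and the ratio of unc-54 to myo-3 was 7.73 in the mutant library and 8.15 in the N2 library. Annotated noncoding RNA genes inside myo-3 (K12F2.3, K12F2.4 and K12F2.5) were listed at 0.0001 FPKM in both libraries, the value the table gives in place of 0.

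The pharyngeal heavy chains were rare transcripts in both libraries, and lay higher in the mutant library by a like factor. The myo-1 gene (WBGene00002348, chromosome I, reverse strand, 7258946 to 7267057) encodes myosin heavy chain D and has 1 transcript of 6457 nt in 9 exons. Its level was 1.82 FPKM in mutant larvae, against 0.700 FPKM in N2 larvae. The myo-2 gene (WBGene00003514, chromosome X, forward strand, 12468061 to 12475348) encodes myosin heavy chain C and has 1 transcript of 6334 nt in 12 exons. Its level was 1.68 FPKM in mutant larvae, against 0.572 FPKM in N2 larvae. Mutant over N2 ratios were 2.60 for myo-1 and 2.93 for myo-2, close to those of the body wall pair. On the log2 scale with 1 FPKM added, which understates the change of low genes, the differences were 0.73 and 0.77, under 2-fold. The noncoding RNA gene R06C7.12 inside myo-1 was listed at 0.0001 FPKM in both libraries. Both myosin genes reached a mean of 1 FPKM only through the mutant library, so that their values are a description, and medians and counts below are also given without them.

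The make-up of the heavy chains was nearly the same in both libraries. In the mutant library unc-54 gave 87.9% of the summed heavy chain FPKM, myo-3 11.4%, myo-1 0.407% and myo-2 0.375%. In the N2 library unc-54 gave 88.3%, myo-3 10.8%, myo-1 0.484% and myo-2 0.395%. The sum itself was 447 FPKM in mutant larvae, against 145 FPKM in N2 larvae, 3.09 times as high in the mutant. These shares do not depend on how the libraries are scaled to each other. FPKM is per length, so that they compare transcript levels and not fragment numbers.

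Paramyosin was also higher in the mutant library, by a smaller factor than the heavy chains. The unc-15 gene (WBGene00006754) lies on the reverse strand of chromosome I from 7376604 to 7383197, and the longest of its 3 transcripts has 3424 nt in 11 exons. Its level was 545 FPKM in mutant larvae, against 238 FPKM in N2 larvae, 2.29 times as high in the mutant, for a log2 difference of 1.19. Per FPKM of summed heavy chain there was 1.22 FPKM of unc-15 in the mutant library and 1.65 FPKM in the N2 library.

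The light chain genes differed little between the libraries. The mlc-1 and mlc-2 genes encode muscle regulatory light chains, and mlc-3 encodes the essential light chain. The mlc-3 gene (WBGene00003371, chromosome III, forward strand, 5565025 to 5567382) has 3 transcripts, the longest of 993 nt in 4 exons. Its level was 874 FPKM in mutant larvae, against 911 FPKM in N2 larvae, and was the highest of the 8 genes in each. The mlc-1 gene (WBGene00003369, chromosome X, forward strand, 17459210 to 17460778) has 1 transcript of 1155 nt in 5 exons, of which 510 nt are coding and 622 nt are 3′ untranslated. Its level was 524 FPKM in mutant larvae, against 521 FPKM in N2 larvae. The mlc-2 gene (WBGene00003370, chromosome X, reverse strand, 17455792 to 17456586) has 1 transcript of 641 nt in 4 exons, of which 510 nt are coding. Its level was 788 FPKM in mutant larvae, against 888 FPKM in N2 larvae.

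The log2 differences of the light chains were 0.01 for mlc-1, -0.17 for mlc-2 and -0.06 for mlc-3. Their signs depended on the scale, since all 3 were above 0, at 0.52, 0.34 and 0.45, when both libraries were rescaled to the same FPKM sum, and above 0 under the other 2 rescalings as well, where mlc-2 was lowest at 0.0092. The mlc-1 and mlc-2 genes are neighbours that encode nearly identical proteins, and reads shared between them could be divided in ways not given in the sources used here. Their sum was 1312 FPKM in mutant larvae, against 1409 FPKM in N2 larvae. This sum is not free of that division, because FPKM is per length and the transcripts have 1155 and 641 nt. The annotated mlc-2 gene overlaps C36E6.2 on the opposite strand by 77 nt, and the table's locus field for mlc-2 starts 3401 nt outside the annotated gene. C36E6.2 was listed at 12.4 FPKM in mutant larvae, against 20.8 FPKM in N2 larvae, far below mlc-2 in both.

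**Figure D1:**
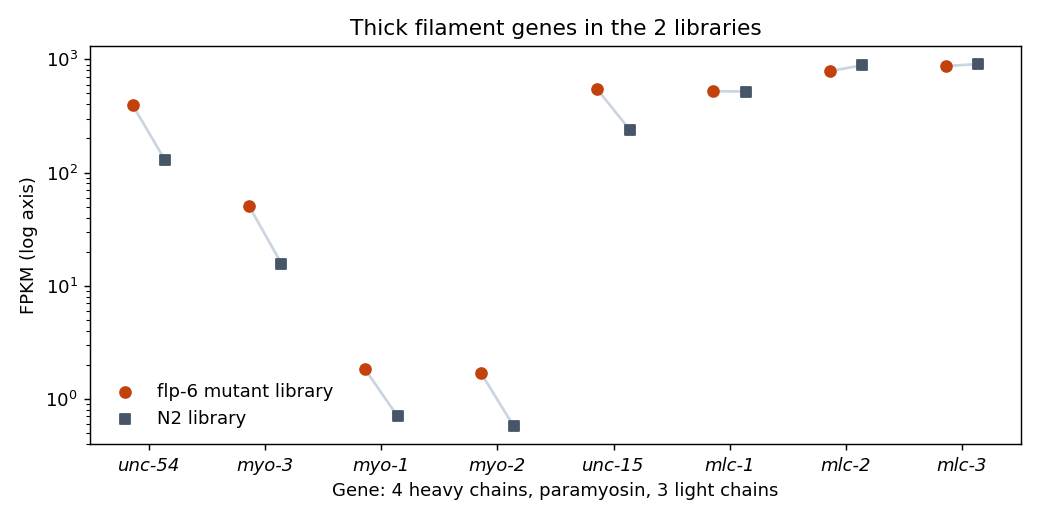
FPKM of the 8 thick filament genes on a log axis, with circles for the flp-6 mutant library and squares for the N2 library, 1 value each. The 4 heavy chain genes and unc-15 slope down toward N2 (unc-54 at 393 FPKM in the mutant and 128 FPKM in N2), while the 3 light chain genes are nearly level.

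In order of level, the mutant library ran mlc-3, mlc-2, unc-15, mlc-1, unc-54, myo-3, myo-1 and myo-2. In the N2 library the order was the same except that mlc-1 stood above unc-15. With no replicates it cannot be said which neighbours in these orders differ beyond the spread between cultures. By ratio, the closest neighbours were unc-15 and mlc-1 in the mutant library, at 545 and 524 FPKM, and mlc-3 and mlc-2 in the N2 library, at 911 and 888 FPKM.

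Long heavy chains and short light chains stood in different proportion in the libraries. Summed light chain FPKM over summed heavy chain FPKM was 4.89 in the mutant library and 16.0 in the N2 library, which puts the mutant ratio at 30.5% of the N2 ratio. The regulatory and essential light chains each stood lower against the heavy chains in the mutant library. For mlc-1 and mlc-2 together the ratio to heavy chains was 2.93 in the mutant library and 9.73 in N2, and for mlc-3 it was 1.95 in the mutant library and 6.29 in N2. Between the light chains themselves the ratios were close, with mlc-1 and mlc-2 together at 1.502 times mlc-3 in the mutant library and 1.546 times in N2. As a median over genes, the log2 difference was 1.62 for the body wall pair unc-54 and myo-3 and -0.06 for the light chains, a gap of 1.68. With myo-1 and myo-2, which passed the filter only through the mutant library, the heavy chain median was 1.19 and the gap 1.25, given as a description.

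**Figure D2:**
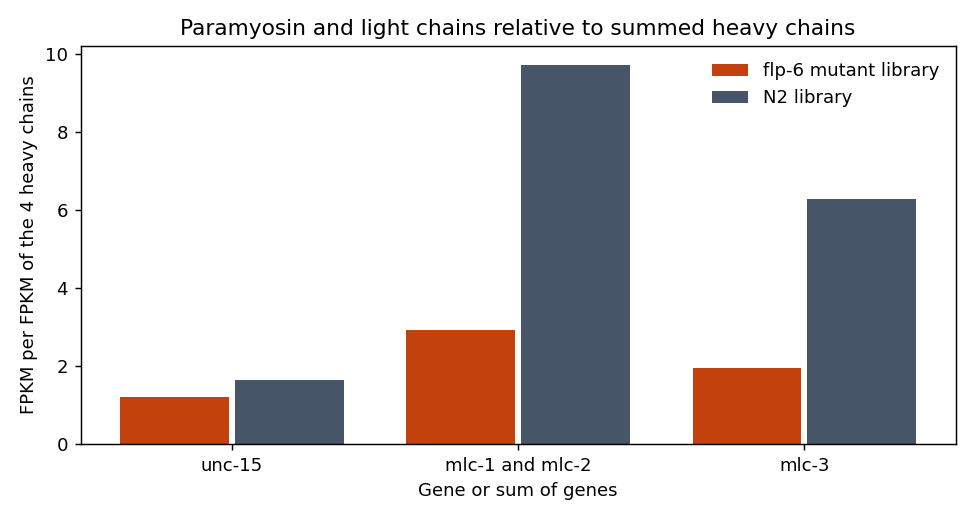
FPKM of unc-15, of mlc-1 and mlc-2 together, and of mlc-3, each divided by the summed FPKM of the 4 heavy chain genes, with the flp-6 mutant library left and the N2 library right in each pair. The mutant bars are at 1.22, 2.93 and 1.95 and the N2 bars at 1.65, 9.73 and 6.29, so the light chain pairs are farther apart than the paramyosin pair.

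The gap between heavy and light chains was set beside that of all genes of like length, because the difference between these libraries went with transcript length across the table. Genes were placed in 40 length bins of equal size. In the longest bin, 4817 to 25858 nt, which holds the 4 heavy chain genes, the median log2 difference was 0.81. In the bins that hold mlc-2, mlc-3 and mlc-1 the medians were -0.56, -0.45 and -0.27. After subtraction of the median of its own bin, unc-54 stood at 0.80, myo-3 at 0.83, myo-2 at -0.042 and myo-1 at -0.078. By the same subtraction unc-15 stood at 0.69, mlc-3 at 0.39, mlc-2 at 0.39 and mlc-1 at 0.28. The median of the body wall pair was then 0.81 and that of the light chains 0.39, a gap of 0.43 against 1.68 before. With myo-1 and myo-2 included the heavy chain median was 0.38, and the gap -0.0060 against 1.25 before. Another reference, not planned beforehand, was the genes of a bin averaging 100 FPKM or more, 15 of them in the longest bin. Against it the gap was 1.38 for the body wall pair and 0.95 with myo-1 and myo-2, so its size depended on the reference. Across the 12999 genes the difference was smaller at higher mean FPKM, with a Spearman's rho of -0.268. Subtraction by length also removes any change that genes of like length share.

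**Figure D3:**
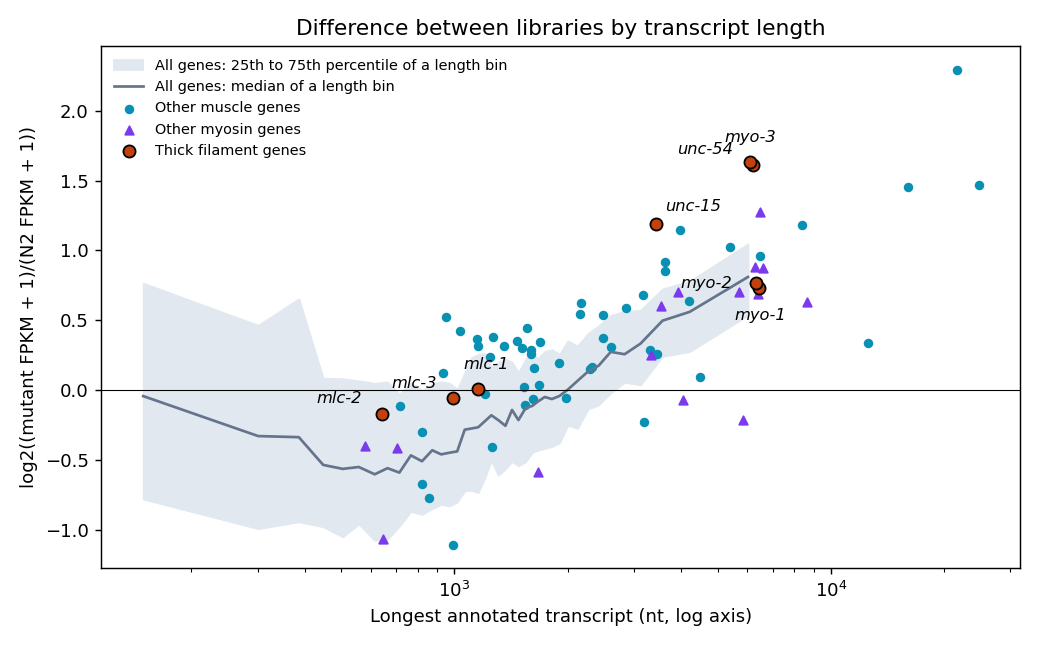
log2((mutant FPKM + 1)/(N2 FPKM + 1)) against the longest annotated transcript in nt on a log axis, for thick filament genes, other myosin genes and other muscle genes averaging 1 FPKM or more, over the median and the 25th to 75th percentile of all genes in 40 length bins (the last bin is drawn at its median length). The line rises to 0.81 in the longest bin. The body wall chains unc-54 and myo-3 lie above it at 1.61 and 1.64, and myo-1 and myo-2 lie close to it at 0.73 and 0.77.

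Within their own length class the body wall chains and paramyosin stood near the top. Of 89 genes within 10% of the length of unc-54, itself included, 86 had a lower log2 difference. For myo-3 it was 95 of 97 genes, and for unc-15 477 of 499 genes. The pharyngeal chains stood lower on this scale, with 28 of 82 genes below myo-1 and 33 of 84 below myo-2. The added 1 FPKM compresses such low values, and without it 69 of the 82 genes lay below myo-1 and 77 of the 84 below myo-2. Against the median of these genes, myo-1 was at 0.37 and myo-2 at 0.55 without it, and at -0.17 and -0.12 with it. The place of these 2 genes thus depends on the scale, as does a heavy chain median that includes them. The light chains lay in the upper part of their classes, with 1024 of 1560 genes below mlc-1, 559 of 816 below mlc-2 and 963 of 1382 below mlc-3. These windows were chosen after the values had been seen.

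The place of unc-54 among abundant long transcripts was also looked at after its values had been seen. In the longest bin 15 genes averaged 100 FPKM or more, and their median log2 difference was -0.40. All 14 others were below unc-54. They included the 6 vitellogenin genes of the yolk, of which vit-1 had the lowest difference, at 704 FPKM in mutant larvae, against 1736 FPKM in N2 larvae, and vit-6 the highest, at 3167 FPKM in mutant larvae, against 4409 FPKM in N2 larvae. The nearest to unc-54 was F40F4.6, at 276 FPKM in mutant larvae, against 117 FPKM in N2 larvae, a log2 difference of 1.22. Abundant short genes were lower in the mutant library, with medians of -0.81, -0.69 and -0.66 among genes averaging 100 FPKM or more in the bins of mlc-2, mlc-3 and mlc-1. Of these genes 55 of 61 lay below mlc-2, 55 of 61 below mlc-3 and 44 of 55 below mlc-1.

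**Figure D4:**
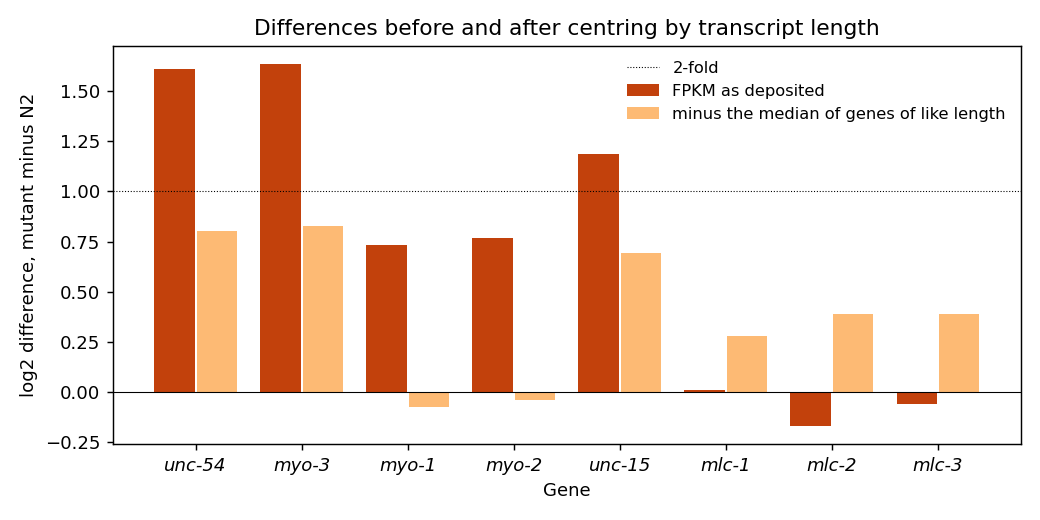
log2 difference of mutant minus N2 for the 8 genes, from FPKM as deposited (dark bars) and after subtraction of the median of genes in the same length bin (light bars); the dotted line marks 2-fold. The dark bars of unc-54, myo-3 and unc-15 pass 2-fold at 1.61, 1.64 and 1.19, and the highest light bar is that of myo-3 at 0.83.

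By the 2-fold rule, 3 of the 8 genes (unc-54, myo-3 and unc-15) were higher by 2-fold or more in the mutant library and 0 were lower by that much, or 3 of 6 without myo-1 and myo-2. Over all 13436 genes, 10.5% were higher by 2-fold or more and 11.3% were lower by as much. Among the 325 genes of the longest bin, 103 were higher by 2-fold or more, a share of 31.7%, and in the bin of unc-15 it was 27 genes, or 8.31%. After centring by length 0 of the 8 genes passed 2-fold, while 10.9% of all genes did so upward and 3.16% downward. Without a pseudocount 5 of the 8 genes (the same 3 with myo-1 and myo-2) were higher by 2-fold or more and 0 lower, against 12.7% and 13.8% of all genes above 0.0001 FPKM in both libraries. The same 5 genes passed with 0.1 FPKM added, where the shares of all genes were 13.2% higher and 14.2% lower. Those 5 also passed a threshold of 1.5-fold, with 19.4% of all genes higher and 26.3% lower, and 2-fold at the same FPKM sum, with 20.5% higher and 3.1% lower. The step up to 5 came each time from myo-1 and myo-2, so that the count without them was 3 of 6 throughout. In the authors' deposited table unc-54 had a p-value of 0.0093 and myo-3 of 0.01275, each with a q-value of 0.951. The other members had p-values from 0.0589 (unc-15) to 0.986 (mlc-1) in the authors' deposited table, from a test that compares 1 library with the other. Of the 8 genes, unc-54 and myo-3 were in the authors' deposited list of 715 genes, and the authors' deposited table of terms placed them with nmy-2 and spe-15 under myosin complex (4 genes, enrichment p-value 0.0323). Those terms were drawn from genes picked for their difference in these libraries and are no independent evidence for it.

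Myosins outside the thick filament showed where heavy and light chains lay without the muscle genes. Of 11 other myosin heavy chain genes, 1 was higher by 2-fold or more and 0 were lower by that much in mutant larvae, against 10.5% and 11.3% of all genes. The median of the 11 was 0.69, or -0.11 once centred by length. The spe-15 gene, which the authors' deposited terms place under myosin complex, was not among the 11 and is not counted. The nmy-2 gene, a nonmuscle myosin of cell division and polarity, was at 113 FPKM in mutant larvae, against 46.1 FPKM in N2 larvae, for a log2 difference of 1.27. The related nmy-1, a nonmuscle myosin of the epidermis and other tissues, was at 73.2 FPKM in mutant larvae, against 45.04 FPKM in N2 larvae. The myo-5 gene, as long as the muscle chains at 6296 nt, was at 2.84 FPKM in mutant larvae, against 1.09 FPKM in N2 larvae. The class V myosin gene hum-2, of 5844 nt, was at 68.7 FPKM in mutant larvae, against 79.7 FPKM in N2 larvae. Its log2 difference of -0.21 turned with the scale, to 0.30 at the same FPKM sum and 0.011 at the same upper quartile, and was -0.029 with the median of genes averaging 5 FPKM or more set to 0.

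The remaining heavy chain genes hum-1, hum-4, hum-5, hum-6, hum-7, hum-8 and myo-6 had log2 differences from -0.07 (myo-6, above 0 under all 3 rescalings) to 0.87 (hum-6). The 4 other light chain genes had a median of -0.50 that was -0.18 after centring. Against 10.5% higher and 11.3% lower over all genes, 0 of these 4 were higher and 1 was lower by 2-fold or more. That gene was mlc-5, an essential light chain used with nonmuscle myosin, at 130 FPKM in mutant larvae, against 273 FPKM in N2 larvae. The regulatory light chain mlc-4 of nonmuscle myosin was at 318 FPKM in mutant larvae, against 424 FPKM in N2 larvae. The mlc-7 gene was at 48.5 FPKM in mutant larvae, against 73.4 FPKM in N2 larvae, and mlc-6 at 4.23 FPKM in mutant larvae, against 5.89 FPKM in N2 larvae. When both libraries were rescaled to the same FPKM sum, 2 of these 4 light chain genes lay above 0 and the median was -0.03.

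Among genes for proteins that bind or build the thick filament, 3 of the long ones were higher in the mutant library. Of 9 such genes 8 were kept, and 3 of these were higher by 2-fold or more and 0 were lower by that much in mutant larvae, with a median of 0.32, or 0.31 after centring by length. All 3 lie in the longest bin, where 31.7% of genes were higher by 2-fold or more, against 10.5% of all genes. The unc-22 gene encodes twitchin, a giant kinase of the A-band, and was at 8.23 FPKM in mutant larvae, against 0.883 FPKM in N2 larvae, so that it too passed the filter only through the mutant library, and 2 of 7 genes were higher by 2-fold or more without it. The unc-89 gene encodes the M-line protein obscurin, and was at 9.10 FPKM in mutant larvae, against 2.65 FPKM in N2 larvae. The unc-82 gene, a kinase needed for filament organisation, was at 10.5 FPKM in mutant larvae, against 4.67 FPKM in N2 larvae. The titin-like ttn-1 had a mean under 1 FPKM and was not counted, at 0.699 FPKM in mutant larvae, against 0.111 FPKM in N2 larvae.

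The 5 other kept partners, of 1244 to 3450 nt, differed little between the libraries. The myosin chaperone unc-45 was at 26.4 FPKM in mutant larvae, against 21.9 FPKM in N2 larvae, the M-line protein gene unc-98 at 13.3 FPKM in mutant larvae, against 11.2 FPKM in N2 larvae, and unc-96, whose product binds that of unc-98, at 14.9 FPKM in mutant larvae, against 11.5 FPKM in N2 larvae. The LIM domain gene lim-8 was at 7.76 FPKM in mutant larvae, against 6.18 FPKM in N2 larvae, and lim-9 at 29.6 FPKM in mutant larvae, against 34.9 FPKM in N2 larvae. After centring by length, unc-22 stood at 1.48, unc-89 at 0.66 and unc-45 at -0.24. The bin of unc-22 (21601 nt) and unc-89 (24703 nt) runs from 4817 to 25858 nt, with a median length of 6024 nt. Most genes of that bin are thus far shorter than these, and unc-22 passed the filter only through the mutant library.

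The kept genes of the thin filament, which the myosin heads pull on, all differed by less than 2-fold on FPKM as deposited. Of 18 kept genes out of 19, 0 passed 2-fold in either direction, against 10.5% higher and 11.3% lower over all genes. The median of the 18 was 0.29, or 0.45 after centring by length, and 15 of 18 were above 0 after centring. At the same FPKM sum the median was 0.75, 16 of 18 were above 0 and the highest difference was 1.14, past 2-fold. On that scale 20.5% of all genes were higher by 2-fold or more. The lowest was pat-10, troponin C of body wall muscle, at 1669 FPKM in mutant larvae, against 2856 FPKM in N2 larvae. The troponin C gene of the pharynx, tnc-2, was at 11.8 FPKM in mutant larvae, against 19.4 FPKM in N2 larvae. The highest differences were tnt-3, a troponin T gene, at 33.9 FPKM in mutant larvae, against 21.4 FPKM in N2 larvae, and unc-94, a tropomodulin gene, at 47.7 FPKM in mutant larvae, against 30.6 FPKM in N2 larvae. The actin gene act-2 was listed at 0.0001 FPKM in both libraries. Actin gene copies are nearly identical, so that single values within that family are uncertain.

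Among genes that anchor the sarcomere or excite it, those past 2-fold were 3972 to 16030 nt long. Over all genes, of any length, 10.5% were higher and 11.3% lower by 2-fold or more. Of 14 attachment genes 2 were higher by 2-fold or more and 0 were lower by that much in mutant larvae, with a median of 0.37, or 0.34 after centring. They were tln-1 (talin), at 16.0 FPKM in mutant larvae, against 6.51 FPKM in N2 larvae, and pat-2 (an integrin alpha subunit), at 15.7 FPKM in mutant larvae, against 6.52 FPKM in N2 larvae. The dense body gene deb-1 (vinculin) was at 39.02 FPKM in mutant larvae, against 20.2 FPKM in N2 larvae, and atn-1 (alpha-actinin) at 79.3 FPKM in mutant larvae, against 49.2 FPKM in N2 larvae. Of 8 calcium and excitation genes 1 was higher by 2-fold or more and 0 were lower by that much, with a median of 0.25, or 0.19 after centring. It was unc-68, the ryanodine receptor gene of 16030 nt, at 3.61 FPKM in mutant larvae, against 0.680 FPKM in N2 larvae. It passed the filter only through the mutant library, and without it 0 of 7 genes passed 2-fold. The L-type calcium channel gene egl-19 was at 3.46 FPKM in mutant larvae, against 1.29 FPKM in N2 larvae, the calcium pump gene sca-1 at 309 FPKM in mutant larvae, against 171 FPKM in N2 larvae, and the GABA receptor gene unc-49 at 12.8 FPKM in mutant larvae, against 10.1 FPKM in N2 larvae.

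Of 5 muscle transcription factor genes 4 were kept, with a median of 0.14, or 0.34 after centring. Against 10.5% higher and 11.3% lower over all genes, 0 of the 4 were higher and 1 was lower by 2-fold or more. The lower gene was hnd-1, at 1.01 FPKM in mutant larvae, against 3.33 FPKM in N2 larvae. The pharyngeal factor gene pha-4 was at 3.47 FPKM in mutant larvae, against 2.07 FPKM in N2 larvae. A further pharyngeal muscle factor, ceh-22, was not kept, at 0.0881 FPKM in mutant larvae, against 0.221 FPKM in N2 larvae.

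Over the 52 kept genes of these 5 muscle lists, 6 were higher by 2-fold or more and 1 was lower by that much in mutant larvae. These are 11.5% higher and 1.92% lower, against 10.5% higher and 11.3% lower over all genes. The share of higher genes was thus near the background. Without unc-22 and unc-68, 4 of 50 genes (8.0%) were higher and 1 was lower. After centring by length 1 of the 52 was higher by 2-fold or more and 0 were lower, against 10.9% and 3.16% of all genes. By length, the 9 kept genes over 4000 nt had a median log2 difference of 1.02, the 15 from 2000 to 4000 nt a median of 0.54, and the 28 up to 2000 nt a median of 0.18. These length classes were set after the values had been seen. After centring by length 42 of the 52 were above 0, against 6480 of all 12999 genes, and the median of the 52 was 0.34.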

How the data were processed

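The authors deposited 1 table with FPKM per gene for 1 library of each genotype, per the file headers. Per the submitters' processing notes, TopHat and Cufflinks were run with the build WBcel235; versions, settings and strandedness are not stated there. The ratio and log2 ratio columns deposited by the authors are mutant over N2 without a pseudocount, recomputed here to within 5.33e-14. Their deposited p-value and q-value columns compare 1 library with the other. FPKM is no count, and low values did not fall on whole-read steps (23.3% within 0.1 of a step in the mutant library and 23.3% in N2, 20% by chance), so depth is unknown and no counting interval is given.

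Differences are log2((mutant FPKM + 1)/(N2 FPKM + 1)), for genes averaging 1 FPKM or more. Coordinates and the longest transcript came from Ensembl release 115 of WBcel235, which held 99.2% of identifiers. Length centring used 12999 genes above 0.0001 FPKM in both libraries. It was run on simulated data with a planted smooth length trend and no planted link to FPKM level. That run cannot show how well centring suits these libraries. The members and lists were chosen with earlier results of these data known. Named were the 8 members, the partner and other myosin genes, up to 4 genes per further list with the largest differences, and others (act-2, ceh-22, spe-15, F40F4.6, vit genes and genes overlapping members) picked after their values were seen. Alternatives were pseudocounts, filters, thresholds, scalings and kinds of length. Calculations ran in Python 3.11.15 with pandas 2.3.3, numpy 2.4.6, scipy 1.17.1, and figures in matplotlib 3.10.9.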

Additional observations from a re-analysis of the deposited data

How the results depend on the processing

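No paired analysis was possible because each genotype had 1 library, and no library could be left out. A value was taken as moved when it changed by at least 1.5-fold, or for a count by more than 1.5 times. By this rule 127 values did not move and 42 did. A log2 difference turned its sign 28 times: 8 each for mlc-2 and mlc-3, 3 each for myo-1, myo-2 and the heavy minus light gap, 2 for muscle transcription (-0.029 with no filter and with a mean of at least 5 FPKM) and 1 for other myosin heavy chains. With 40 bins, 20 bins, bins by coding length and genes within 10% of the length, unc-54 was at 0.80, 0.93, 0.79 and 0.72, myo-3 at 0.83, 0.95, 0.82 and 0.74, myo-1 at -0.078, 0.050, -0.090 and -0.17, and myo-2 at -0.042, 0.087, -0.053 and -0.12. The gap of heavy minus light chain medians was -0.0060, 0.12, -0.14 and -0.055 under these settings, and 0 of the 8 genes were 2-fold higher. With unc-54 and myo-3 alone as heavy chains the gap was 0.43, 0.55, 0.30 and 0.38. Under the other settings the gap with unc-54 and myo-3 alone stayed between 1.38 and 1.72. With myo-1 and myo-2 included, the gap under those settings stayed between 0.91 and 1.65.

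The pseudocount bore on the pharyngeal chains. With none myo-1 was at 1.38 and myo-2 at 1.55, with 0.1 FPKM myo-2 was at 1.40, and in both cases 5 of the 8 genes were 2-fold higher. The count was also 5 with the same FPKM sum and with a 1.5-fold threshold, where 19.4% of all genes were higher. Centred on genes of the same bin averaging 100 FPKM or more, unc-54 was at 2.01, myo-3 at 2.03, myo-1 at 1.13 and myo-2 at 1.17. By the same setting mlc-1 was at 0.67, mlc-2 at 0.64 and mlc-3 at 0.63. Light over heavy chains with mlc-3 alone was 1.95 in the mutant library and 6.29 in N2.

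Of other muscle genes 13 were higher and 3 lower at 1.5-fold, 0 lower with a mean of at least 5 FPKM, and 1 higher and 0 lower after length centring. The median of other myosin heavy chains was -0.11 after centring. The cause of the length trend was not tested. Depth is unknown, so that the precision of myo-1 and myo-2, at under 2 FPKM, cannot be given.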
